A study of Mus musculus with 4 samples.

Results

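The genes described here are 37 mouse genes of the response to low oxygen and of glycolysis, read in cultured CT26 cells, which come from a colon carcinoma of the mouse. They were chosen by name. Each was read from a probe set to which the array's annotation gives that symbol alone, and where a gene had several such probe sets, from the set whose mean level was highest. Of the 37 genes, 32 were measured in this way, out of 22180 named genes in all. Aldoa, Bnip3l and Ankrd37 lay on probe sets shared with another symbol, and with Gpi1 and Eno1 they were not analysed here. The study used 4 Affymetrix Mouse Gene 2.0 ST arrays, with 1 culture on each. The first pair held CT26 cells given the solvent DMSO for 24 h and CT26 cells given 5 µM Senexin B for 24 h, a small-molecule inhibitor of the Mediator kinases CDK8 and CDK19. The second pair held the CT26 line named for pLKO.1, the lentiviral backbone used to carry hairpin RNAs, and the CT26 line named shCDK8. The labels do not say whether these lines are clones or pools, which hairpin was used, or that any culture was kept at low oxygen.

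With 1 array per group there was no spread between replicates, so no difference was tested and no error can be given. Every value below is a deposited log2 expression level or a difference of such levels between a pair of arrays, where 1 on this scale is 2-fold. Genes were taken as expressed if the highest of their levels reached 5.98, the 40th percentile of all gene levels. This held for 14272 genes and for 29 of the 32 measured members. Epas1, Slc2a3 and Adm stayed under that limit on all 4 arrays. The difference between the control arrays, pLKO.1 minus DMSO, is given as the background between cultures with neither Senexin B nor the shCDK8 hairpin. It shares an array with each comparison, and a vector line and a solvent-treated culture are not replicates. The labels do not say whether the pLKO.1 line carries a control hairpin.

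Cells sense oxygen through prolyl hydroxylases, the products of Egln1, Egln2 and Egln3, which mark the alpha subunits of hypoxia-inducible factor (HIF) for destruction while oxygen is present. At low oxygen the alpha subunits Hif1a and Epas1 persist, pair with the subunit encoded by Arnt and bind the hypoxia response element, a short DNA motif with the core ACGTG or GCGTG. Their targets raise glucose uptake, glycolysis and lactate export, and include factors for vessel growth, pH control and turnover of mitochondria. Many tumour lines run glycolysis at a high rate also in the presence of oxygen. CDK8, a kinase that joins the Mediator complex to regulate RNA polymerase II, has been described as a coactivator at HIF target genes.

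The promoters of 6 members are shown because they set the genes that stood furthest apart in the line with the hairpin, Egln3 and Slc16a3, beside hypoxia targets with smaller differences, Car9, Slc2a1, Pgk1 and Ldha. Each run is the 250 bases before the annotated start, from the RefSeq table for GRCm38.p6, written 5′ to 3′ on the gene's strand. Capitals mark each ACGTG or GCGTG on either strand, so the reverse strand reads as CACGT or CACGC, and overlapping matches form the palindrome CACGTG. The Egln3 stretch is chr12:54203875-54204124 on the minus strand. The others lie on the plus strand, at chr11:120948817-120949066 for Slc16a3, chr4:43506776-43507025 for Car9, chr4:119108495-119108744 for Slc2a1, chrX:106186850-106187099 for Pgk1 and chr7:46845554-46845803 for Ldha, the upstream member of 2 annotated starts.
Egln3: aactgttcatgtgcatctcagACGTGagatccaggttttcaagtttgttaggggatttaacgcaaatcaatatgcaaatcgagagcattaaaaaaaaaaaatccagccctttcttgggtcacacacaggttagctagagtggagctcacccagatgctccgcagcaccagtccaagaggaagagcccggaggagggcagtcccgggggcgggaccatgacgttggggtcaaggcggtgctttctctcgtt
Slc16a3: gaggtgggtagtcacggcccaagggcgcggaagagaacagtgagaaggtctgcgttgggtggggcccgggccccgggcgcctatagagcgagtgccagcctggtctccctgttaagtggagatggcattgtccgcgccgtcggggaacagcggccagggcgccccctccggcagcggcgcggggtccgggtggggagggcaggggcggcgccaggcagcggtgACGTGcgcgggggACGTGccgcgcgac
Car9: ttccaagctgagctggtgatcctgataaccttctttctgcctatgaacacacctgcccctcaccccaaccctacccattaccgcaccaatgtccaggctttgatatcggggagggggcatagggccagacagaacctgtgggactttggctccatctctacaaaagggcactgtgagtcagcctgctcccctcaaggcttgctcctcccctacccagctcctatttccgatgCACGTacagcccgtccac
Slc2a1: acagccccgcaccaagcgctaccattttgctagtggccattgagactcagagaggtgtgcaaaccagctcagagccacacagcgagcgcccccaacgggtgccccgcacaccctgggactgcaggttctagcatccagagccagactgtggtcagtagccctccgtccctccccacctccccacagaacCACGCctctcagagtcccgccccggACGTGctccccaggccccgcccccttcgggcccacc
Pgk1: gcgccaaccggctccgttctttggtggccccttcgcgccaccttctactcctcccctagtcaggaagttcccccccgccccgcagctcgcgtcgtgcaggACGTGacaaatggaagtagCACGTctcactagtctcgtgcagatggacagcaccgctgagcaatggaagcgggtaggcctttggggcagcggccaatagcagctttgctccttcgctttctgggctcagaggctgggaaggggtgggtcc
Ldha: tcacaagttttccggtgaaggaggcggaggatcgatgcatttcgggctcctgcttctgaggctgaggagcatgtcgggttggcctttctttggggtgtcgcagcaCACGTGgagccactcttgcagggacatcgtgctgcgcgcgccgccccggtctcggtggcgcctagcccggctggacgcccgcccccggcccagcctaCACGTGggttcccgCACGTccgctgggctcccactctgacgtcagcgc
Egln3 held a single match, which began 229 bases before the start. Slc16a3 held 2, which began 27 and 14 bases before it, and Car9 held 1 at 18 bases. Ldha held 3 separate stretches, at 145, 48 and 34 bases, of which the first and second were the palindrome. Of its 2 annotated starts, the one with the most matches was taken, and the other held no ACGTG. Either core was present before all 6 genes, as it was before 27 of 28 expressed members with a promoter entry. The 6 genes were picked by the size of their differences, and any part of the motif in these was not tested.

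Across the expressed members most differences were small, and a few genes stood out. With Senexin B the median difference was -0.0048, beside -0.028 over all expressed genes. Above 0 lay 14 of 29 members (48.3%), beside 44.8% of all expressed genes. No member was 2-fold higher or 2-fold lower, where 0.687% and 0.252% of all expressed genes were. Vegfa alone was at least 1.5-fold higher, against a background of 2.35%, and no member was 1.5-fold lower, against 1.65%. In shCDK8 minus pLKO.1 the median was 0.014, beside 0.0038 over all expressed genes. Above 0 lay 18 of 29 (62.1%), beside 50.8% of all expressed genes. Egln3 and Slc16a3 were at least 2-fold lower, where 0.322% of expressed genes were, and Ndrg1 joined them at 1.5-fold, against 1.85%. No member was 2-fold higher (background 0.196%) or 1.5-fold higher (1.67%). Between the controls the median was -0.026, and Slc16a3 was the single member at least 1.5-fold higher, against 0.603%, with none 1.5-fold lower, against 0.434%. No member was 2-fold apart between the controls, where 0.0841% of expressed genes were higher and 0.014% lower.

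**Figure D1:**
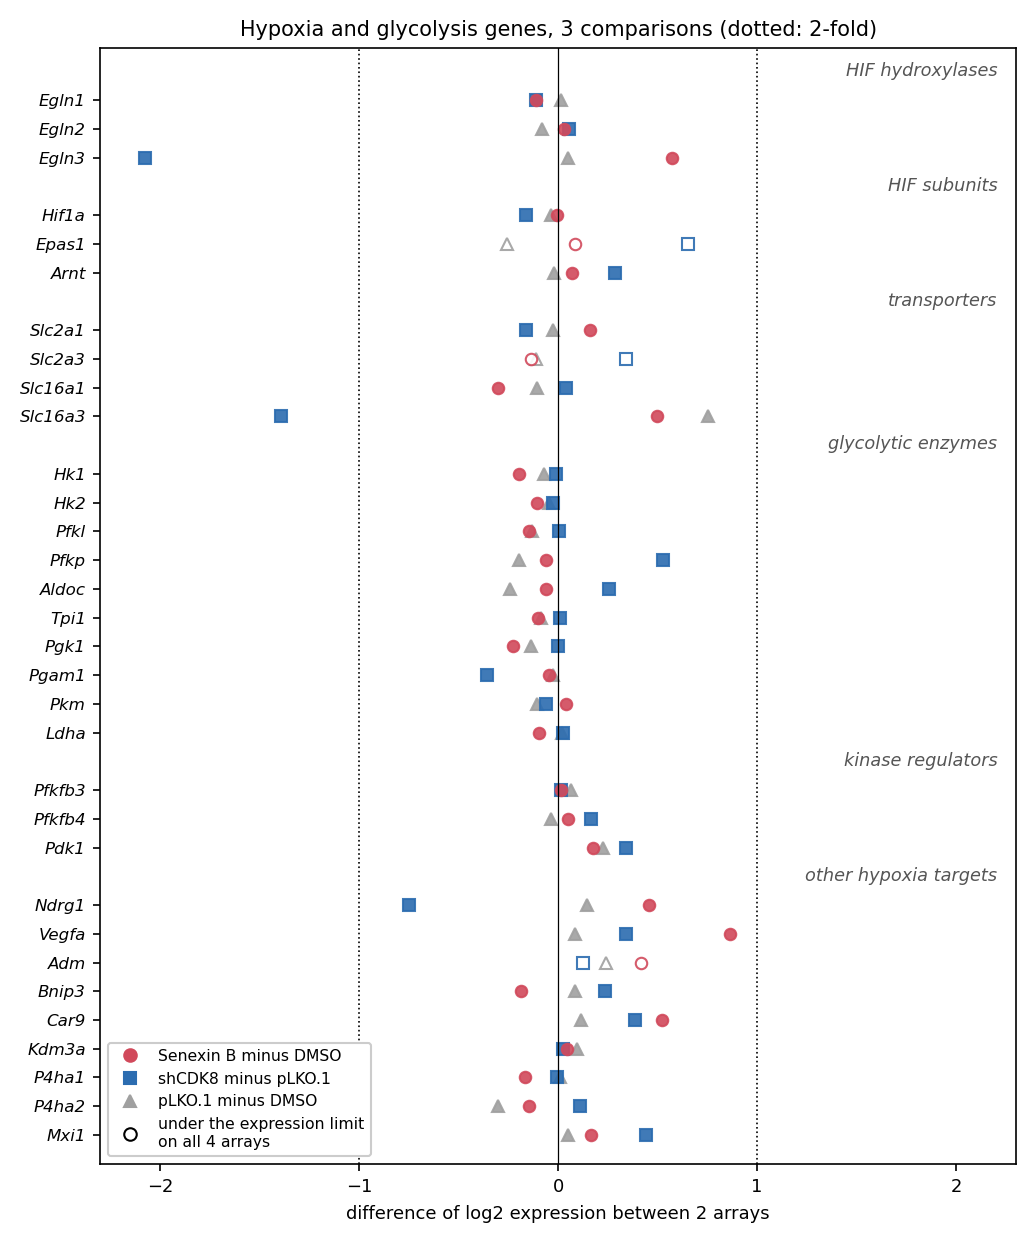
Difference of log2 expression (x axis) for the 32 measured members (rows, grouped by role) in Senexin B minus DMSO (circles), shCDK8 minus pLKO.1 (squares) and pLKO.1 minus DMSO (triangles), 1 array per group; open symbols are the 3 genes under the expression limit on all arrays. Only the squares of Egln3 (-2.07) and Slc16a3 (-1.39) pass the dotted 2-fold lines.

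Typical differences of the members were close in size to those of other genes. The median size of the difference, whatever its sign, was 0.15 for members and 0.15 for all expressed genes with Senexin B, 0.16 and 0.14 in shCDK8, and 0.084 and 0.11 between the controls. Over the 4 arrays the range of a gene's levels had a median of 0.26 for members and 0.31 for all expressed genes. With Senexin B 22 of 29 expressed members differed by less than 0.2, in shCDK8 17 and between the controls 25. Of all 14272 expressed genes 8735, 9110 and 10658 did. On the probe sets used here 14 members differed by less than 0.2 in each of the 3 comparisons, among them Egln1, Egln2, Hif1a, Slc2a1, Hk2, Ldha and Pkm. The 4 members at least 1.5-fold apart in any of the 3 comparisons were Egln3, Slc16a3, Ndrg1 and Vegfa. Counts over the 3 comparisons jointly were not made for all expressed genes, so those of the members have no background.

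Among the prolyl hydroxylases, Egln3 stood apart while its relatives lay close together on the 4 arrays. Egln3 stood at 9.03 with DMSO, 9.60 with Senexin B, 9.07 with pLKO.1 and 7.00 in shCDK8. The array of the hairpin line was thus lowest by far, the controls lay close together, and the Senexin B array was highest. The difference in shCDK8 was -2.07 (4.21-fold lower), rank 3 from the lowest among 14272 expressed genes, and it was -2.03 against the DMSO array. With Senexin B the difference was 0.57 (1.49-fold higher), rank 354 from the highest, and 0.53 against the pLKO.1 array. That value lay just under the 1.5-fold limit, and it was 0.64 after a repeated quantile normalization, which takes it past the limit. Egln1, the main hydroxylase for HIF1A in most cells, stood at 10.02, 9.91, 10.03 and 9.92 in the order DMSO, Senexin B, pLKO.1 and shCDK8. Egln2 stood at 8.93, 8.96, 8.85 and 8.90 in that order. The largest of their differences was -0.11, for Egln1 in both comparisons.

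The HIF subunits differed little where they were expressed. Hif1a, the alpha subunit found in most cells, stood at 9.95 with DMSO, 9.95 with Senexin B, 9.91 with pLKO.1 and 9.75 in shCDK8. The largest of its differences was -0.16, in shCDK8. HIF1A is controlled chiefly as a protein, which an array of transcripts does not measure. Arnt, the shared partner subunit, stood at 10.16, 10.23, 10.14 and 10.42 in the same order, highest in shCDK8 with a difference of 0.29. Epas1, which encodes the alpha subunit HIF2A, lay between 5.25 (pLKO.1) and 5.91 (shCDK8), under the expression limit throughout. Its difference of 0.65 in shCDK8 is therefore a difference near background, and it was 0 once low levels were raised to the limit.

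Of the transporters, the lactate exporter gene Slc16a3 stood apart. Slc16a3 encodes MCT4, the carrier through which glycolytic cells release lactate. It stood at 6.93 with DMSO, 7.43 with Senexin B, 7.69 with pLKO.1 and 6.29 in shCDK8. The hairpin array was lowest and the vector array highest, so the controls did not agree for this gene. The difference in shCDK8 minus pLKO.1 was -1.39 (2.63-fold lower), rank 11 from the lowest. Against the DMSO array it was -0.64 (1.56-fold lower), so that Egln3 alone was at least 2-fold lower against that array, where 0.329% of expressed genes were. Senexin B minus DMSO was 0.50, but Senexin B minus pLKO.1 was -0.26, so the direction for the inhibitor turned with the control array used. Between the controls Slc16a3 differed by 0.76, rank 36 from the highest among 14272 genes and the highest of all members.

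The other transporters lay closer together. Slc16a1, which encodes MCT1, a carrier for lactate in either direction, stood at 11.71 with DMSO, 11.40 with Senexin B, 11.60 with pLKO.1 and 11.64 in shCDK8. Its difference with Senexin B, -0.30, was the lowest of all members in that comparison, and it was -0.20 against the pLKO.1 array. Slc2a1, the gene of the glucose transporter GLUT1, stood at 11.02, 11.18, 10.99 and 10.83 in that order. It was 0.16 higher with the inhibitor and at -0.16 in shCDK8. Slc2a3, which encodes the glucose transporter GLUT3, lay between 4.81 and 5.18 on the 4 arrays, under the expression limit.

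The enzymes of glycolysis differed little between the arrays. All 10 measured enzymes were expressed: the hexokinases Hk1 and Hk2, the phosphofructokinases Pfkl and Pfkp, the aldolase Aldoc, Tpi1, Pgk1, Pgam1, Pkm and the lactate dehydrogenase Ldha. With Senexin B the differences ran from -0.23 (Pgk1) to 0.038 (Pkm), 9 of 10 lay below 0, where 55.1% of all expressed genes did, and the median was -0.099. Between the controls 9 of 10 also lay below 0, beside 55.6% of all expressed genes, with a median of -0.097, and against the pLKO.1 array the Senexin B median was -0.017 with 7 of 10 below 0, beside 50.2%. For Senexin B minus DMSO, the median of all genes was -0.028 at the limit used here and -0.070 at a limit at the 60th percentile. After a lowess trend over expression level was subtracted, Pfkp, Pgam1 and Pkm lay above 0 in that comparison, at 0.0088, 0.029 and 0.064. In shCDK8 minus pLKO.1 the median was 0.0021, with 6 of 10 above 0, beside 50.8%. On the probe sets used here none of the 10 was 1.5-fold apart in any of the 3 comparisons. A second, lower probe set of Pgam1 was at -0.62 in shCDK8 minus pLKO.1, past the 1.5-fold limit.

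Single enzymes in shCDK8 went both ways. Pfkp, the platelet-type phosphofructokinase, which acts at the committed step, stood at 8.37 with DMSO, 8.31 with Senexin B, 8.18 with pLKO.1 and 8.71 in shCDK8. Its difference in shCDK8 was 0.53 (1.44-fold higher), the highest of all members there, and 0.33 against the DMSO array. Pgam1, a phosphoglycerate mutase, stood at 11.01, 10.97, 10.99 and 10.63 in the same order, a difference of -0.36 in shCDK8. The arrays of both controls and of Senexin B lay within 0.044 of each other for Pgam1, and the hairpin array was lowest. Pgk1 differed by 0.0010 and Pfkl by 0.0032 between shCDK8 and pLKO.1. Ldha lay between 8.83 and 8.98, Tpi1 between 12.45 and 12.55 and Hk2 between 8.36 and 8.46 on the 4 arrays. Pfkp, Pgam1 and these further enzymes were picked out after their values were seen.

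Of the regulators of glycolytic flux none was 1.5-fold apart, and Pdk1 had the largest difference in shCDK8. Pfkfb3 and Pfkfb4 encode enzymes that make the activator of phosphofructokinase, and Pdk1 a kinase that keeps pyruvate out of mitochondria. Pdk1 stood at 7.98 with DMSO, 8.15 with Senexin B, 8.20 with pLKO.1 and 8.54 in shCDK8. Its difference was 0.34 in shCDK8, 0.17 with Senexin B and 0.22 between the controls, so the DMSO array was lowest and the hairpin array highest. Pfkfb4 differed by 0.17 in shCDK8 and by 0.049 with Senexin B. Pfkfb3 lay between 6.42 and 6.50 on all 4 arrays.

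The remaining hypoxia targets held the member furthest apart with Senexin B. Vegfa, the gene of vascular endothelial growth factor A, stood at 10.00 with DMSO, 10.87 with Senexin B, 10.09 with pLKO.1 and 10.43 in shCDK8. The controls were lowest and close together, and the Senexin B array was highest. The difference with Senexin B was 0.86 (1.82-fold higher), rank 135 from the highest of 14272, and it was 0.78 against the pLKO.1 array. In shCDK8 Vegfa was 0.34 higher than in pLKO.1 and 0.43 higher than with DMSO.

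Ndrg1, a stress-responsive gene widely used as a hypoxia marker, stood at 8.65 with DMSO, 9.11 with Senexin B, 8.80 with pLKO.1 and 8.05 in shCDK8. The order of the arrays was that of Egln3, with shCDK8 lowest and Senexin B highest. The difference in shCDK8 was -0.75 (1.68-fold lower), rank 119 from the lowest, and -0.60 against the DMSO array. With Senexin B it was 0.46, and 0.31 against the pLKO.1 array. Ndrg1 had a second probe set, under the expression limit on all arrays, and the mean of both gave -0.41 in shCDK8, no longer 1.5-fold.

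Car9, the gene of a carbonic anhydrase that controls pH at the cell surface, was higher in both comparisons on the probe set used here. It stood at 5.83 with DMSO, 6.35 with Senexin B, 5.95 with pLKO.1 and 6.33 in shCDK8. Both controls lay just under the expression limit and both perturbed cultures above it, so Car9 counted as expressed only through the arrays where it was high. The differences were 0.52 with Senexin B and 0.39 in shCDK8, or 0.38 and 0.36 once low levels were raised to the limit. A second probe set of Car9, under the limit on all arrays, gave 0.38 with Senexin B and -0.031 in shCDK8. Mxi1, which encodes an antagonist of Myc, stood at 8.95, 9.12, 9.00 and 9.44 in the order DMSO, Senexin B, pLKO.1 and shCDK8. Mxi1 was 0.44 higher in shCDK8 and 0.16 higher with Senexin B. Its second probe set, at lower levels, gave 0.22 in shCDK8 but -0.24 with Senexin B, so the direction with the inhibitor differed between the sets. Car9 and Mxi1 were picked out after their values were seen.

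Other targets had smaller differences. Kdm3a, a histone demethylase, lay between 8.82 and 8.95. P4ha1, a subunit of the enzyme that hydroxylates collagen, lay between 10.13 and 10.31, and its relative P4ha2 between 7.59 and 7.89. Bnip3, which promotes removal of mitochondria, lay between 7.82 (Senexin B) and 8.32 (shCDK8), a span of 0.50 with both controls inside it. Its differences were -0.18 with Senexin B and 0.23 in shCDK8. Adm, the gene of the peptide adrenomedullin, lay between 5.03 and 5.45, under the expression limit. The 8 expressed genes of this group had a median of 0.10 with Senexin B, 0.17 in shCDK8 and 0.085 between the controls.

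**Figure D2:**
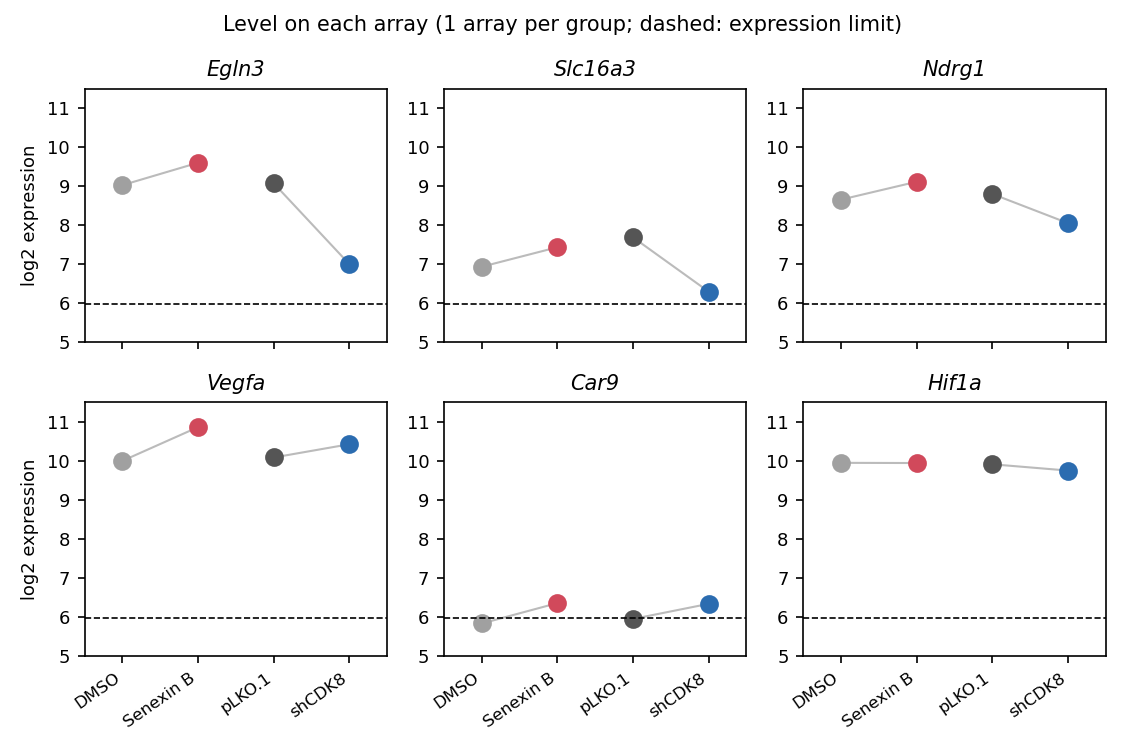
Deposited log2 expression (y axis) on the arrays for DMSO, Senexin B, pLKO.1 and shCDK8 (x axis), 1 point per array, for 6 members; thin lines join the arrays of a comparison and the dashed line is the expression limit of 5.98. Egln3, Slc16a3 and Ndrg1 are lowest in shCDK8, Vegfa is highest with Senexin B at 10.87, and Hif1a lies between 9.75 and 9.95; levels of different genes are not comparable on arrays.

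The inhibitor and hairpin comparisons have no array in common, so each member's values can be set side by side. Of the 29 expressed members, 9 were above 0 in both, 6 below 0 in both, 5 above 0 with the inhibitor and below 0 with the hairpin, and 9 the reverse. Over all expressed genes these shares were 24.1%, 28.4%, 20.7% and 26.7%, against 31.0%, 20.7%, 17.2% and 31.0% of members. Egln3 (0.57 and -2.07, with the inhibitor first), Slc16a3 (0.50 and -1.39) and Ndrg1 (0.46 and -0.75) were at least 0.4 higher with the inhibitor and at least 0.4 lower with the hairpin. Over all expressed genes 105, or 0.736%, met that bound, which was chosen after the values were seen. When each comparison was set against the other control array, Egln3 gave 0.53 and -2.03, Ndrg1 0.31 and -0.60, and Slc16a3 -0.26 and -0.64. Opposite directions thus held for Egln3 and Ndrg1 with either control. For Slc16a3 they held where Senexin B was read against DMSO, with shCDK8 read against either control. They did not hold where Senexin B was read against pLKO.1.

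Vegfa (0.86 and 0.34) and Car9 (0.52 and 0.39) were the members at least 0.3 higher in both comparisons, a bound that 1.63% of expressed genes met and that was also chosen after the values were seen. Car9 counted as expressed only through the Senexin B and shCDK8 arrays, where it was high, and the mean of its 2 probe sets gave 0.18 in shCDK8, under that bound. Across the 29 expressed members Pearson's r between the comparisons was -0.38. Without Egln3, Slc16a3 and Ndrg1 it was 0.42 over 26 genes. These 3 genes were picked for their opposite values, so a rise of r on their removal was fixed in advance. Over all expressed genes, with none removed, r was 0.0078, and the 0.42 is not comparable with it. These coefficients run across genes of the same 4 arrays, which are not independent replicates, and the sign for the members rested on those 3 genes.

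**Figure D3:**
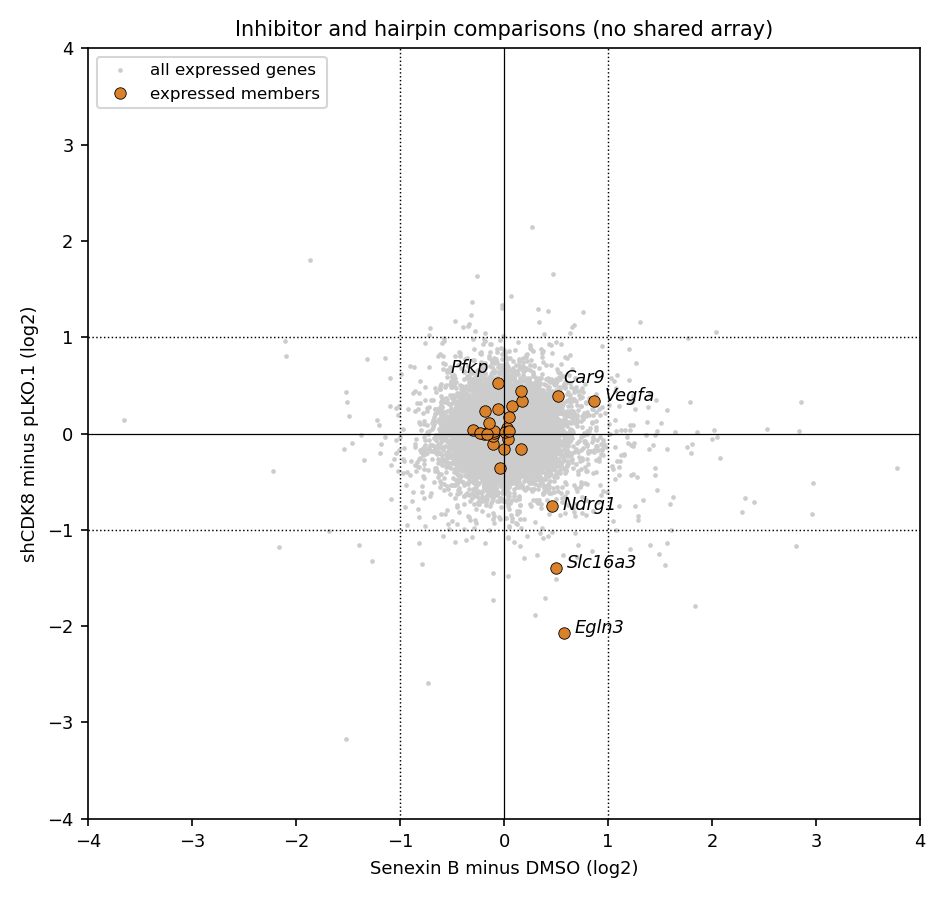
Each point is a gene, with Senexin B minus DMSO on the x axis and shCDK8 minus pLKO.1 on the y axis, both as differences of log2 expression between 2 arrays; grey points are the 14272 expressed genes and orange points the 29 expressed members. Egln3, Slc16a3 and Ndrg1 lie to the lower right, Vegfa and Car9 to the upper right, and most members within the grey cloud near 0.

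The wider pathway was read from further lists of genes named for their known roles. Of 14 expressed genes of the HIF machinery, none was 1.5-fold apart in either comparison or between the controls. Of all expressed genes, 2.35% were 1.5-fold higher and 1.65% lower with Senexin B, 1.67% and 1.85% in shCDK8, and 0.603% and 0.434% between the controls. The medians of the 14 were -0.057 for Senexin B, -0.067 for shCDK8 and -0.014 between the controls. The list held, among others, subunits of the ubiquitin ligase that marks HIF for destruction, coactivators and the asparagine hydroxylase gene Hif1an. Siah1a and Siah2, also on the list, encode other ubiquitin ligases. Hif1an was lower in both comparisons, at 8.19 with DMSO, 7.86 with Senexin B, 8.19 with pLKO.1 and 7.85 in shCDK8. Its differences were -0.33 with Senexin B and -0.34 in shCDK8, and the controls were alike. The coactivator gene Ep300 differed by -0.29 and the ubiquitin ligase gene Siah2 by -0.28 in shCDK8. With Senexin B, Arnt2, a relative of Arnt, was 0.58 higher, Siah1a was at -0.41 and Eloc, a subunit of the ligase that recognises HIF, at -0.40. The Arnt2 value lay just under the 1.5-fold limit (1.49-fold). The gene also differed by -0.45 between the controls, and against the pLKO.1 array it was 1.02 higher, which is 2.03-fold.

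Of 21 expressed further genes of glucose metabolism, Eno3 alone was 1.5-fold apart in a comparison. Eno3, a muscle-type enolase gene, stood at 11.43 with DMSO, 11.23 with Senexin B, 11.49 with pLKO.1 and 10.83 in shCDK8. The hairpin array was lowest, with a difference of -0.65 (1.57-fold lower). The pyruvate dehydrogenase kinase gene Pdk2 was higher in both comparisons, by 0.46 with Senexin B and 0.44 in shCDK8. Read against the DMSO array, shCDK8 gave 0.59 for Pdk2, which is 1.51-fold higher, and -0.60 for Eno3. Pdha1, a subunit of the dehydrogenase that these kinases inhibit, was 0.48 higher in shCDK8, but was at -0.36 between the controls. With Senexin B the glycogen branching enzyme gene Gbe1 was at -0.45 and the neuronal enolase gene Eno2 at 0.39, and Gbe1 was also at -0.54 between the controls. The list medians were -0.045, 0.025 and -0.065 for Senexin B, shCDK8 and the controls.

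Of 40 expressed further HIF targets 1 was 2-fold apart, with Senexin B, where 0.252% of all expressed genes were lower by as much. This was Hmox1, the heme oxygenase gene, which answers to oxidative stress as well as to HIF. It stood at 11.25 with DMSO, 10.17 with Senexin B, 10.80 with pLKO.1 and 10.12 in shCDK8, so both perturbed arrays lay below both controls. Its differences were -1.08 with Senexin B and -0.68 in shCDK8, beside -0.45 between the controls. Against the other control array it was -0.63 with Senexin B, no longer 2-fold, and -1.13 in shCDK8. At least 1.5-fold, Senexin B gave Vldlr, a lipoprotein receptor gene, higher (0.85), and Hmox1 and the uridine phosphorylase gene Upp1 (-0.62) lower, which is 1 and 2 of 40 where 2.35% and 1.65% of all expressed genes were. In shCDK8, Car12, a relative of Car9, was 0.99 higher, and 3 genes were lower, which is 1 and 3 of 40 where 1.67% and 1.85% of all expressed genes were. The 3 were Hmox1, Higd1a (-0.74), which encodes a mitochondrial protein induced by hypoxia, and the adenylate kinase gene Ak4 (-0.63), which was named after its value was seen. Ak4 lay under the expression limit in shCDK8, and once low levels were raised to it the difference was -0.38, no longer 1.5-fold. The medians of the 40 were -0.041 for Senexin B, -0.042 for shCDK8 and -0.00066 between the controls. With Senexin B and in shCDK8 alike 17 of 40 (42.5%) lay above 0, beside 44.8% and 50.8% of all expressed genes.

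**Figure D4:**
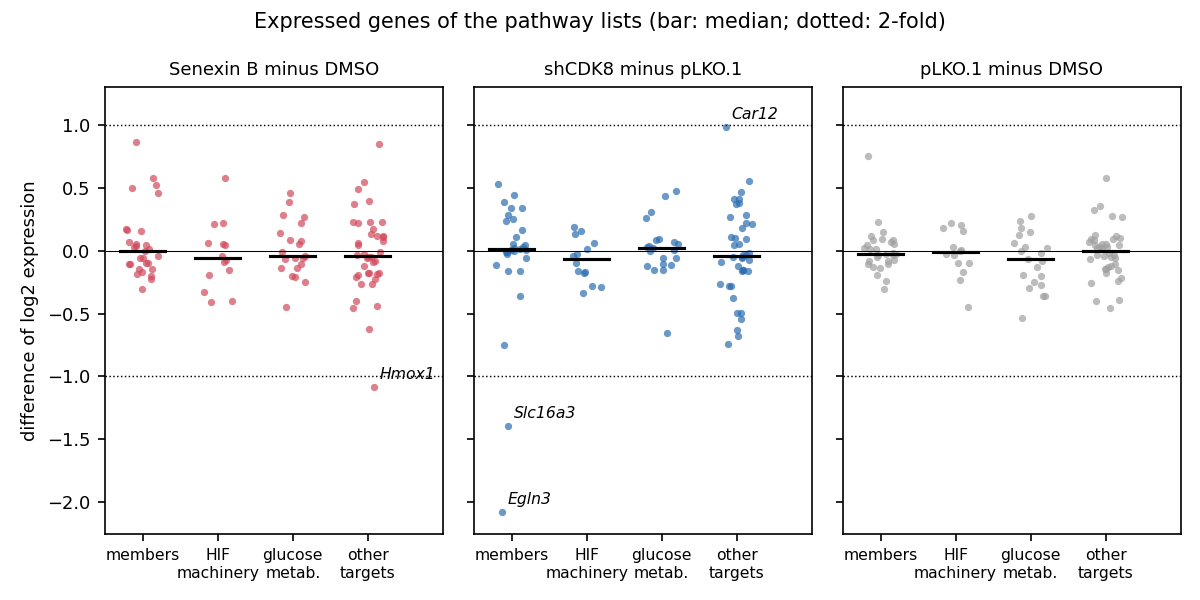
Difference of log2 expression (y axis) for expressed genes of 4 lists (x axis): the 29 members, 14 further genes of the HIF machinery, 21 of glucose metabolism and 40 HIF targets, in 3 comparisons (panels), with a bar at each median; horizontal scatter within a list has no meaning. All medians lie within 0.07 of 0, and Egln3, Slc16a3 and Hmox1 pass a dotted 2-fold line.

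The hypoxia motif shown above was common among the members' promoters. RefSeq promoters were found for 33 of the 37 members, and of 28 expressed members with an entry 19 (67.9%) held ACGTG on either strand within 250 bases before any annotated start. Of 11151 expressed genes with an entry, 23.9% did. For GCGTG the shares were 67.9% and 46.6%, and for the palindrome CACGTG, which contains ACGTG on both strands, 17.9% and 9.40%. Over all 32851 promoters in the table, 16.6% held ACGTG and 28.2% GCGTG. The members were named for their place in the hypoxia response, so a larger share says nothing about these cultures.

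Members with and without ACGTG overlapped in their differences. Either core, ACGTG or GCGTG, was present in 27 of 28 expressed members (96.4%), beside 57.8% of expressed genes with an entry. The members without ACGTG thus mostly held GCGTG and are not a group free of the motif. The 19 with ACGTG had a median of -0.0048 with Senexin B and 0.0010 in shCDK8, and ran from -2.07 (Egln3) to 0.44 (Mxi1) in shCDK8. The 9 without it had medians of -0.058 and 0.17, and ran from -0.0093 to 0.53 (Pfkp) in shCDK8. Over all expressed genes the medians with ACGTG were -0.050 and 0.0036, and without it -0.029 and 0.0099. Slc16a3, with 2 copies within 27 bases of the start, was 2.63-fold lower in shCDK8, while Ldha, with 3 stretches, differed by 0.027.

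The arrays were alike in their overall distribution. The medians of 41345 probe sets lay between 5.99 and 6.04, and the arrays correlated across probe sets with Pearson's r of 0.982 to 0.990. The label shCDK8 was checked on Cdk8 itself, which stood at 10.69 with DMSO, 10.58 with Senexin B, 10.79 with pLKO.1 and 9.07 in shCDK8, a difference of -1.72. Cdk19 was 0.19 higher there. Of 10 markers of colon epithelium 6 were expressed, while Epcam, Krt19, Vil1 and Lgals4 were under the limit on all arrays, and all 10 mesenchymal markers were expressed. Of these, Fap reached the limit on the pLKO.1 array alone, at 6.41. By the same rule 5 of 6 endothelial markers were expressed, of which only Tie1 reached the limit on all 4 arrays. Of 7 measured immune markers 2 were expressed, Cd68 and Nkg7, and the leukocyte marker Ptprc lay between 4.27 and 4.66. In shCDK8 minus pLKO.1, 5 of the 6 expressed epithelial markers lay above 0, beside 50.8% of all expressed genes. Their median was 0.11, and the keratin gene Krt20 alone lay below 0, at -1.44. Of the mesenchymal markers 4 of 10 lay above 0 there, with a median of -0.19, and they went both ways, from Col3a1 (-1.27) and Dcn (-0.82) to Acta2 (0.93). With Senexin B 7 of 10 lay above 0, beside 44.8% of all expressed genes. Their median was 0.35, and Dcn (2.29) and Pdgfra (1.24) were highest. The summed log2 levels ran from 61.4 (shCDK8) to 63.8 (Senexin B) for the epithelial list and from 98.7 (shCDK8) to 103.9 (Senexin B) for the mesenchymal list. Between the same arrays, Krt20 alone went from 6.59 to 8.62 and Dcn from 8.77 to 11.30. The markers named here were picked out after their values were seen, and their part in the differences of the members was not tested.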

How the data were processed

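The authors deposited log2 expression values for each probe set on each array. The submitters' processing notes list RMA and Affymetrix Expression Console. Not given in the sources used here are the settings and whether all arrays were normalized jointly. RMA equalizes the distributions of the arrays, so a shift common to all genes would be removed, and it compresses differences near background. Signal over background was not used here. Of 41345 probe sets, 23521 had 1 gene symbol in the platform annotation, 1814 several and 16010 none, and only the first kind was used. Of 22180 genes, 1082 had several probe sets. The groups are those of the labels, with 1 array each, so the number of arrays limits the precision. No test was run. Differences were computed in Python 3.11.15 with pandas 2.3.3, and expressed genes at least 2-fold or 1.5-fold apart were counted over all genes and over the members. The counting was tested on simulated data. Promoters came from the RefSeq table for GRCm38.p6, matched by symbol, and no coordinates of probe sets are given.

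The members and lists were chosen with earlier results of these data known. The rule for named genes takes members at least 1.5-fold apart, the hydroxylases, HIF subunits and transporters, and up to 3 genes per further list and comparison. The alternatives were an expression limit at the 60th percentile or none, quantile normalization applied again, subtraction of a lowess trend (span 0.3, statsmodels 0.14.6), averaged probe sets, low levels raised to the limit, the 1.5-fold threshold and the other control array. A difference or median counted as moved when the shift reached 0.1.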

Additional observations from a re-analysis of the deposited data

How the results depend on the processing

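The median difference of the expressed members stayed within 0.1 of its value under each alternative run, with ranges of -0.058 to 0.016 for Senexin B minus DMSO, -0.062 to 0.036 for shCDK8 minus pLKO.1 and -0.035 to 0.0063 between the controls. These ranges cross 0, so the sign of these medians depended on the alternative. With the 1.5-fold threshold 1 member was higher with Senexin B (Vegfa) and 1 between the controls (Slc16a3), where none was 2-fold higher. Against the DMSO array 1 member in place of 2 was at least 2-fold lower in shCDK8, since Slc16a3 was then at -0.64. The other counts of 2-fold members kept within 1.5 times their value. Repeated quantile normalization and lowess removal moved no member's difference by 0.1 or more. They changed the sign of 5 members' differences with Senexin B, 2 in shCDK8 and 3 between the controls, and the largest of these differences was 0.061 in size. The other control array moved the differences of 14 of 32 measured members with Senexin B and of 14 in shCDK8. No paired analysis was possible because each group has 1 array and the labels give no replicate numbers. Array signal over background was not used here, so differences of genes near the limit of 5.98, such as Car9 and Aldoc, are the least certain.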

Other observations

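Of the measured members 7 had a second probe set with lower levels, which the values above do not use. For Pgam1 it stood at 8.94 with DMSO, 8.57 with Senexin B, 8.51 with pLKO.1 and 7.89 in shCDK8. The differences were -0.36 with Senexin B, -0.62 in shCDK8 and -0.42 between the controls, beside -0.044, -0.36 and -0.026 for the probe set with the higher level. The value of -0.62 is past the 1.5-fold limit, and against the DMSO array the second set was at -1.04 in shCDK8, past 2-fold. Both were lowest in shCDK8, but they disagree on the inhibitor and on the controls. Mxi1 had a second set at 7.22, 6.98, 7.21 and 7.43 in the same order of arrays, with -0.24 for Senexin B where the first set gave 0.16, and 0.22 for shCDK8 where the first gave 0.44. The second set of Hif1a gave -0.46 with Senexin B from levels near or under the expression limit (6.12 and 5.66), where the first gave -0.0048. For Car9 the second set, under the limit on all arrays, gave 0.38 with Senexin B and -0.031 in shCDK8. The second set of Slc2a1 differed by 0.012 and -0.0077. The second sets of Pdk1 and Ndrg1 lay under the limit on all arrays.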
